A study of Mus musculus with 28 samples.

Results

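The comparison described here is a dose step of romidepsin in CD8 T cells, from 10 to 30 nM. It rests on 4 of the 28 arrays of the study, chosen by their labels: 2 arrays of splenic mouse CD8 T cells treated at 10 nM and 2 of the same kind of cells treated at 30 nM, set against each other within each replicate number. In the study, CD4 and CD8 T cells were taken from mouse spleen by negative selection, which removes the other cells with antibodies. After 2 days on plate-bound anti-CD3 with soluble anti-CD28, they had 1 further day with romidepsin (2, 10 or 30 nM) or vorinostat (0.5, 2 or 10 µM), or as a stimulated control. RNA of each of the 14 groups was measured on 2 Affymetrix mouse arrays. Both groups of the dose step share the stimulation and the cell type, so that only the amount of drug differs between them by label. The labels name no vehicle, and do not say which animals or cultures the arrays came from. Genes of the sex chromosomes, given below, put the 2 arrays of each group in animals of different sex. Whether arrays of equal number share an animal or a culture is not stated. The p-values measure only the spread between arrays of the study that is left after the fit takes out the difference between replicate numbers.

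Romidepsin is a cyclic depsipeptide prodrug that, once reduced inside the cell, binds the zinc of class I histone deacetylases. These enzymes remove acetyl groups from the lysines of histone tails and of many other proteins, and their inhibition lets acetylation build up at promoters and enhancers. Romidepsin and vorinostat are used against T cell lymphomas. CD8 T cells are the cytotoxic arm of the T cell compartment, and carry the Cd8a and Cd8b1 chains as coreceptor of their antigen receptor.

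All values below are on the log2 scale of the array, on which 1 unit is a doubling. Where 2 values are given for a dose, the first is the array of replicate 1 and the second that of replicate 2. The step of a gene is its level at 30 nM minus its level at 10 nM, and ± is the standard error of the step in the limma fit, with n = 2 arrays a dose. Adjusted p-values are from limma with the Benjamini-Hochberg method over the 9870 genes tested, with 0.05 as threshold. A gene counted as detected above 4.27, which is the most frequent value of all arrays plus 2 units. That level is a convention and not a measured background. Most genes named below were chosen among calls that moved the same way in both replicates. For them, a like direction in both replicates is part of the choice and no further evidence.

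Between 8618 and 9320 of 18193 genes lay over the detection level in the 4 arrays, more in replicate 2 than in replicate 1 at either dose. Eif2s3y, a gene of the Y chromosome, was read in the replicate 1 arrays and Xist, the RNA of X inactivation, in the replicate 2 arrays, so the replicate numbers also differ in sex. The actin 3′ probe set exceeded the 5′ probe set by 1.01 and 0.85 at 10 nM, and by 1.23 and 0.90 at 30 nM. This gap, which widens with shorter RNA, was larger at 30 nM, and by more in replicate 1. The same gap of Gapdh was smaller at 30 nM, from 0.23 and 0.087 to 0.18 and 0.073. The T cell markers Cd8a, Cd8b1, Cd3d, Cd3e and Cd3g, 5 of 5 on the array, were detected at 8.59 or higher. Among them the CD8 chains Cd8a and Cd8b1 lay at 9.92 or higher, while Cd4 lay at 2.31 or lower. The erythroid markers (0 of 2) and the natural killer cell markers Ncr1, Tyrobp and Fcer1g (0 of 3) were under the detection level in all 4 arrays. Klrd1 and Klrk1, which natural killer cells and activated CD8 T cells both express, were detected in all 4 and are given below. Of the B cell markers, 2 of 5 were detected in at least 1 array, and their summed level was 6.64 and 9.36 at 10 nM and 5.27 and 7.79 at 30 nM. Of the myeloid markers, 2 of 7 were detected, and their summed level was 7.32 and 7.14 at 10 nM and 7.68 and 7.45 at 30 nM.

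The step moved a large share of the transcriptome, with more genes up than down. Of 9870 genes tested, 2054 passed the threshold (20.8%): 1264 rose (12.8%) and 790 fell (8.00%). The excess of rises was smaller under other scalings. With equal array medians 1141 rose and 940 fell, and with quantile normalization 1312 rose and 1114 fell. The median step was 0.71 among the genes that rose and -0.75 among those that fell. A step of over 1 unit was reached by 320 of the rises and 248 of the falls, and one of over 2 units by 44 and 29. The genes that rose had a median level of 7.39 in the control, 7.44 at 2 nM, 7.74 at 10 nM and 8.47 at 30 nM. Those that fell went from 9.26 and 9.19 to 8.80 and 7.96. All genes tested had a median of 7.96 at 10 nM. A gene near the lowest value of the scale has no room to fall, so a higher start among the falls is partly built in. The mean at 10 nM was under the detection level for 5 of the falls and 146 of the rises.

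The replicates differed in how far the falls went. Among the genes that fell, the median step was -0.91 in replicate 1 and -0.60 in replicate 2, and 80.6% fell further in replicate 1. Among those that rose the medians were 0.75 and 0.65, and 59.4% rose further in replicate 1, against 56.2% of all genes tested that moved further there. Both 30 nM arrays lay above both 10 nM arrays for 945 of the 1264 rises (74.8%), and for 18.2% of all genes tested. Both lay below for 299 of the 790 falls (37.8%), and for 7.4% of all genes tested. The number of calls rests on the pairing and on single arrays. Without the replicate number in the fit, 46 genes passed (0.466%), 46 of them rises. With 1 array left out in turn, 1135 genes passed without 10 nM replicate 1, 124 without 10 nM replicate 2, 108 without 30 nM replicate 1 and 2347 without 30 nM replicate 2. Of the 108, 98 were rises and 10 were falls. With the actin 3′-to-5′ gap as a covariate beside the replicate number, 1090 genes rose and 594 fell.

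**Figure D1:**
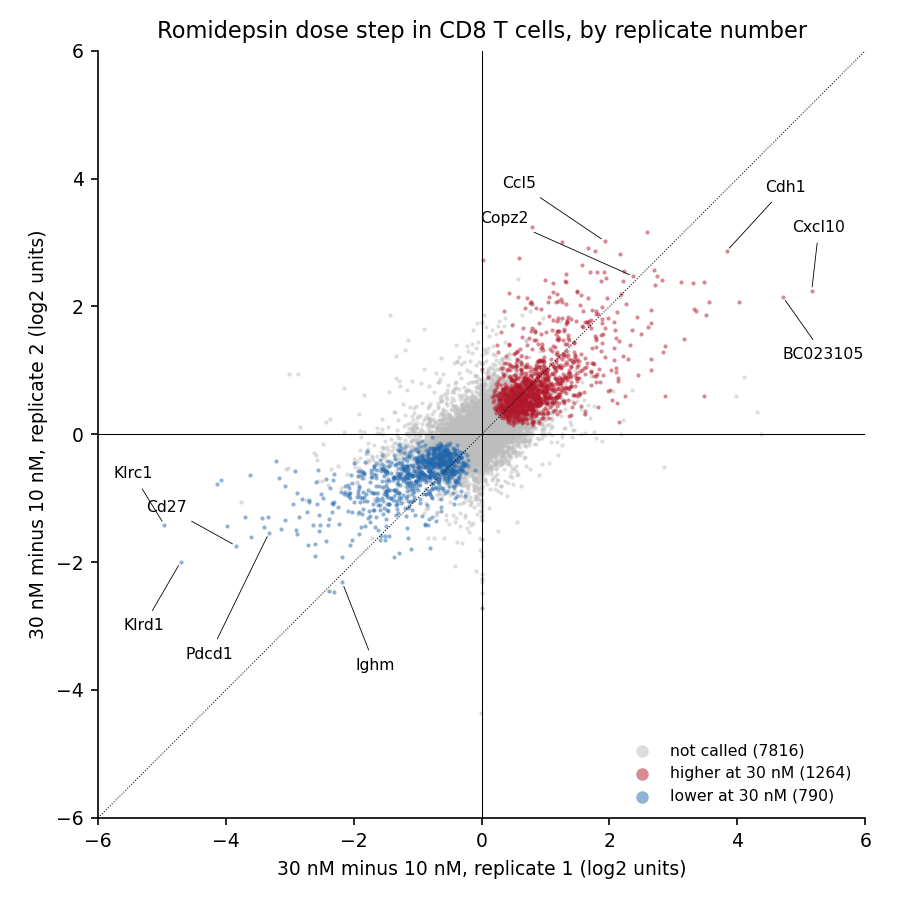
Each point is 1 of the 9870 genes tested, with its step in replicate 1 on the x axis and in replicate 2 on the y axis, in log2 units; red marks the 1264 genes that rose and blue the 790 that fell (limma, adjusted p under 0.05), and the dotted line marks equal steps. The blue points spread further along the x axis, where the median step of the falls was -0.91, than along the y axis, where it was -0.60.

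The largest rise with both doses detected was that of Cxcl10, a chemokine that draws CXCR3-bearing T cells. Its level was 5.80 and 5.70 at 10 nM and 10.97 and 7.94 at 30 nM, a step of 3.70 ± 0.55 (13.0-fold, adjusted p = 0.00137). Both 30 nM arrays lay over both 10 nM arrays, and replicate 1 went further. Bex4, of a family of small proteins best known from brain, went from 5.47 and 6.25 to 9.03 and 8.32, a step of 2.81 ± 0.47 (7.02-fold, adjusted p = 0.0024). Copz2, a subunit of the COPI coat of Golgi vesicles, went from 5.17 and 5.16 to 7.54 and 7.63, a step of 2.42 ± 0.37 (adjusted p = 0.00157). The groups did not overlap for either gene, and the replicates of Copz2 differed by less than 0.1 at either dose. The largest fall was that of Klrd1, which encodes CD94, the partner chain of the NKG2 receptors on killer cells and activated CD8 T cells. It went from 11.29 and 13.18 to 6.59 and 11.19, a step of -3.35 ± 0.94 (10.2-fold lower, adjusted p = 0.0231). Klrc1, the inhibitory NKG2A chain that pairs with it, went from 8.47 and 8.28 to 3.50 and 6.87, a step of -3.19 ± 0.83 (9.13-fold lower, adjusted p = 0.0172). Both 30 nM arrays lay under both 10 nM arrays for these receptors, by far more in replicate 1.

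The sequences just upstream of the largest rises and falls are shown so that they can be set beside the measured steps. They are 150 bases before the annotated start, 5′ to 3′ on the strand of the gene, from RefSeq (GRCm38.p6), for the 3 largest steps each way, with both doses detected, among genes with an entry in the promoter table used. Capitals mark matches, on either strand, to GGGCGG (the GC box), CCAAT (the CCAAT box), CACGTG (an E box) or the core of the interferon response element, a motif added after the values were seen. The sequences of the rises are those of Cxcl10 (chr5:92348890-92349039, minus strand), Bex4 (chrX:136138846-136138995, plus strand) and Copz2 (chr11:96849726-96849875, plus strand).
Cxcl10: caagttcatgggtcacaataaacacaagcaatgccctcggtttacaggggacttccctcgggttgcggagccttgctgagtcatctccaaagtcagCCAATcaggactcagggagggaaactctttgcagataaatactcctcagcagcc
Bex4: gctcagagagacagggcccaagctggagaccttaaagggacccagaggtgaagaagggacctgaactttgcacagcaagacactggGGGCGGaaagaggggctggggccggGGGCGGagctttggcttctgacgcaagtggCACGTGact
Copz2: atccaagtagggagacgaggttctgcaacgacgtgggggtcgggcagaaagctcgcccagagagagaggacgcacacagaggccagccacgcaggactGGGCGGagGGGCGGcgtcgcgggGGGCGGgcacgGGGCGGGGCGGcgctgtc

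The sequences of the falls are those of Klrc1 (chr6:129678974-129679123, minus strand), Cd27 (chr6:125237028-125237177, minus strand) and Cd160 (chr3:96829352-96829501, minus strand, 1 of 2 starts in the table). The starts used for Klrc1 and Cd27 lie inside the full spans of these genes (chr6:129666015-129682852 and chr6:125232620-125237136). The window of Klrc1 is therefore wholly within the gene, and that of Cd27 in large part.
Klrc1: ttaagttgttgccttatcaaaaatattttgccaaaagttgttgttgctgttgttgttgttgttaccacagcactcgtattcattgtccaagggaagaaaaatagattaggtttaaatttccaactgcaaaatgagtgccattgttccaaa
Cd27: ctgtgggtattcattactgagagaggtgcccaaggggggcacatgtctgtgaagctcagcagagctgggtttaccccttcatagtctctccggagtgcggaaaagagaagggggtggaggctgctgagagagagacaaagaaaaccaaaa
Cd160: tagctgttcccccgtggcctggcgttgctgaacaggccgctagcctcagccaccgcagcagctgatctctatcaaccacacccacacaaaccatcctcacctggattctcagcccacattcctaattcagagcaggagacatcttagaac

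The window of Cxcl10 held a CCAAT box, that of Bex4 GC boxes and an E box, and that of Copz2 a run of GC boxes. None of the 4 motifs was in the windows of the 3 falls, of which those of Klrc1 and Cd27 hold sequence within the gene. Over all genes with an entry, GGGCGG was in 62.3% of 1050 windows of genes that rose and 50.6% of 630 of genes that fell, against 56.0% of 8107 genes tested and 29.0% of 27025 promoters in the table. CCAAT was in 36.2% and 22.9% of them, against 29.6% of genes tested and 25.3% of all. CACGTG was in 6.4% and 5.1%, against 6.4% and 4.3%. These shares are descriptions, and no test was made on them.

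In the list of effector cytokines and chemokines 1 of 18 tested genes rose and 1 fell, with a median step of 0.08 against 0.04 over all genes tested. Of all genes tested, 12.8% rose and 8.00% fell. The rise was Ccl5. This chemokine, which CD8 T cells store and release, went from 12.29 and 9.76 to 14.22 and 12.79, a step of 2.47 ± 0.49 (adjusted p = 0.00545). It was higher at 30 nM in both replicates, from different starting levels, and the 2 groups did not overlap. In the interferon list, 7 of 15 tested genes rose and 2 fell, with a median step of 0.72 against 0.04 over all genes tested. Iigp1, a GTPase of defence against intracellular parasites, went from 11.57 and 11.28 to 13.45 and 12.58 (1.59 ± 0.45, adjusted p = 0.0235). Gbp2, a guanylate-binding protein, went from 11.81 and 11.41 to 13.71 and 12.34 (1.41 ± 0.38, adjusted p = 0.02). Both were already higher at 10 nM than in the control, by 2.58 and 1.40, and the groups of the step did not overlap for either. Ifit1, which binds viral RNA, was under the detection level at 10 nM on average and rose at least 3.39-fold. Usp18, which limits interferon signalling, rose by 0.98 ± 0.19 (adjusted p = 0.00467), and Ifih1, Igtp and Irgm1 rose too. The genes that fell were Irf9, the DNA-binding part of the interferon-activated factor ISGF3 (-0.68 ± 0.13, adjusted p = 0.00544), and Ddx58, the RNA sensor RIG-I (-0.87 ± 0.28, adjusted p = 0.04). The core of the interferon response element was in the upstream window of 6 of 13 genes of this list with an entry, and of 1.3% of genes tested. Over all genes called in the step, it was in 1.5% of windows of genes that rose and 2.2% of those that fell. These shares describe letters, with no test.

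Of the neuronal and synaptic list, 7 of 14 tested genes rose and none fell, and 11 further members were not tested, being low in nearly all arrays or not on the array. Of the 14, 7 had a control mean under the detection level, among them 4 of the rises, and such genes were tested only because they were higher in other arrays. The count is therefore a description of the members tested, beside the 12.8% of all genes tested that rose. Bex2 went from 5.74 and 6.02 to 7.35 and 7.78 (1.69 ± 0.28, adjusted p = 0.00239). Uchl1, a ubiquitin hydrolase abundant in neurons, went from 6.24 and 5.32 to 6.99 and 7.37 (1.40 ± 0.34, adjusted p = 0.0139). Both lay under the detection level in the 2 control arrays and over it in the 2 arrays at 10 nM. Cdh1, the epithelial cadherin, lay at 2.62 and 2.42 in the control and at 2.98 and 2.50 at 10 nM, and reached 6.81 and 5.37 at 30 nM, at least 3.52-fold higher (adjusted p = 0.000662). Its difference from the control at 10 nM did not pass (adjusted p = 0.776). Other genes that rose from a mean under the detection level at 10 nM were Dynlrb2, a dynein light chain (at least 4.98-fold), Dzank1 (3.99-fold), Serpinb1a, an inhibitor of neutrophil proteases (3.56-fold), Clba1 (3.56-fold) and Gca (3.50-fold). In all, 101 genes rose from under to over the detection level, and 22 fell from over to under it.

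Cytoskeletal genes rose and fell within the same list, with 7 of 22 up, 2 down and a median step of 0.25. Of all genes tested, 12.8% rose and 8.00% fell. Wasf1, which drives actin branching, went from 6.29 and 4.65 to 7.98 and 7.18 (2.11 ± 0.24, adjusted p = 0.000389). Myo6, a myosin that walks towards the minus end of actin, went from 4.71 and 4.63 to 6.52 and 6.51 (1.85 ± 0.40, adjusted p = 0.00748). Enah, a regulator of actin filament tips outside this list, went from 5.08 and 3.56 to 6.75 and 6.47 (2.29 ± 0.34, adjusted p = 0.00131), and Lmna, which encodes the nuclear lamins A and C, rose by 2.32 ± 0.34 (adjusted p = 0.00125). For these 4 genes both 30 nM arrays lay above both 10 nM arrays. The list's falls were Tpm4, a tropomyosin (-0.95 ± 0.28, adjusted p = 0.0288), and Cnn2, a calponin (-0.55 ± 0.16, adjusted p = 0.0295).

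Metal, heat shock and detoxification genes rose in part, where 12.8% of all genes tested rose and 8.00% fell. In the heat shock and metallothionein list 6 of 15 rose and none fell, with a median step of 0.16. Mt1, a metallothionein that binds zinc and copper, went from 10.32 and 9.62 to 12.31 and 11.43 (1.90 ± 0.26, 3.73-fold, adjusted p = 0.001), and Mt2 rose by 1.85 ± 0.34 (adjusted p = 0.00403). Hspa1a, the inducible Hsp70, went from 6.41 and 3.31 to 8.29 and 5.71 (2.14 ± 0.39, adjusted p = 0.00378). The doses did not overlap for Mt1; for Hspa1a the 30 nM array of replicate 2 lay under the 10 nM array of replicate 1, and both replicates rose. In the glutathione and redox list 4 of 18 rose and 2 fell, the falls near the share over all genes. Gsta4, a transferase for lipid aldehydes, rose by 2.13 ± 0.38 (adjusted p = 0.00366), while Gpx1, the main cellular glutathione peroxidase, fell by 0.43 (± 0.11, adjusted p = 0.016). In the lysosome and autophagy list 6 of 22 rose and none fell, with a median step of 0.32. Its rises included Wipi1, an autophagosome protein (1.16 ± 0.29, adjusted p = 0.0157), Lamp2, a lysosomal membrane protein (0.83 ± 0.17, adjusted p = 0.00582), and the protease Ctsl (0.77 ± 0.20, adjusted p = 0.0159).

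In the deacetylase list, which holds the zinc-dependent enzymes and the NAD-dependent sirtuins, 5 of 13 rose and 1 fell. Of all genes tested, 12.8% rose and 8.00% fell. Hdac1, a class I enzyme, averaged 11.50 at 10 nM and 11.86 at 30 nM (0.36 ± 0.11, adjusted p = 0.0367), and Hdac3 from 9.04 and 9.17 to 9.31 and 9.51 (0.30 ± 0.08, adjusted p = 0.0221). Hdac2, of class I too, differed by 0.08 ± 0.11 (adjusted p = 0.628). The other rises were the sirtuins Sirt2 (0.61 ± 0.19, adjusted p = 0.0338) and Sirt7 (0.54 ± 0.15, adjusted p = 0.024) and the class IIa enzyme Hdac5 (0.45 ± 0.14, adjusted p = 0.0341). Hdac7, a class IIa enzyme that shuttles out of the nucleus on T cell receptor signals, went from 6.96 and 8.70 to 4.72 and 7.56 (-1.69 ± 0.51, adjusted p = 0.0318). The groups overlapped for Hdac7, and both replicates fell. Of the acetyltransferases and acetyl readers, 2 of 13 fell and none rose: Kat2b, which encodes PCAF (-1.39 ± 0.31, adjusted p = 0.00897), and Crebbp, which encodes CBP (-0.49 ± 0.13, adjusted p = 0.0163).

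**Figure D2:**
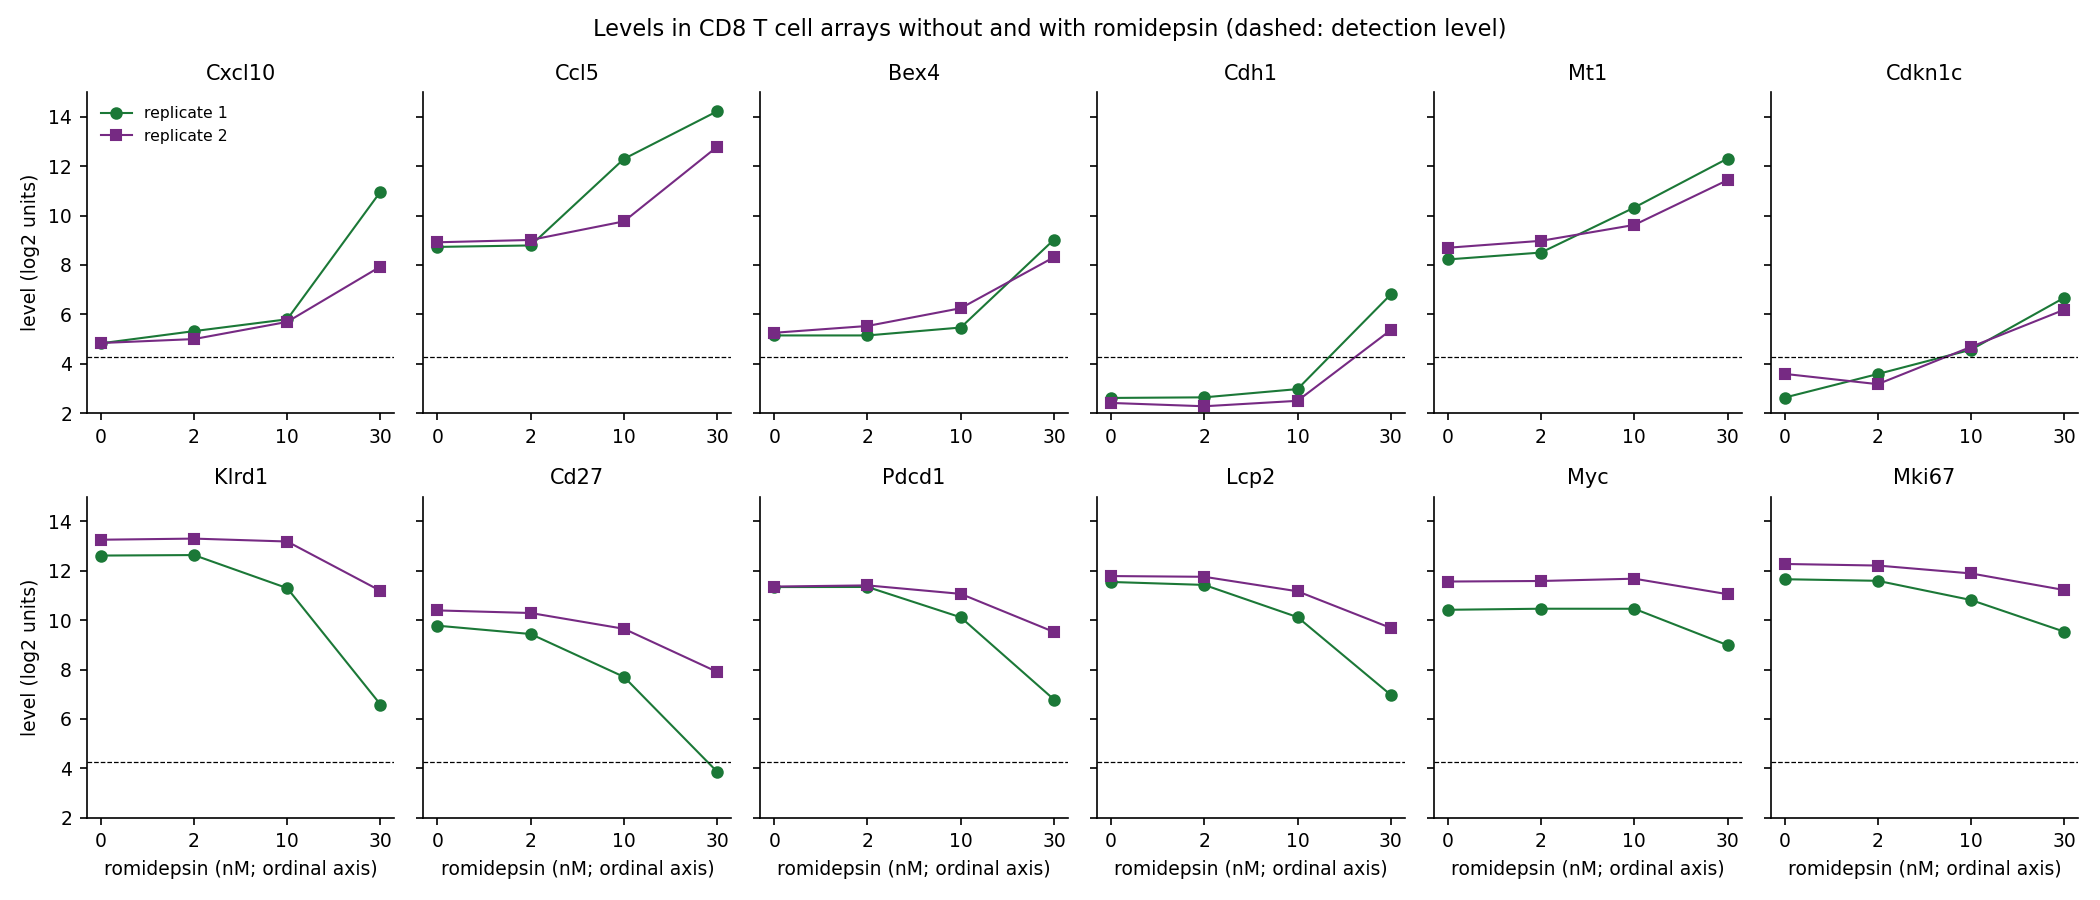
Levels of 12 genes in log2 units in the CD8 T cell arrays of the control (0) and the 3 romidepsin doses, on an ordinal dose axis; circles joined by green lines are replicate 1, squares joined by purple lines are replicate 2, and the dashed line is the detection level of 4.27. Cdh1 stays near its control level up to 10 nM and reaches 6.81 and 5.37 at 30 nM, while Klrd1, Cd27, Pdcd1 and Lcp2 end lower in replicate 1 than in replicate 2.

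Genes of the antigen receptor were among the falls. Of the list of CD8 identity and receptor-complex genes, 5 of 11 fell and none rose, with a median step of -0.65. The share of all genes tested that fell was 8.00%. Cd247, the zeta chain that carries most of the receptor's signalling motifs, went from 9.83 and 11.26 to 7.25 and 10.18 (-1.83 ± 0.52, adjusted p = 0.025). Cd3d went from 12.73 and 13.60 to 11.45 and 13.15 (-0.86 ± 0.27, adjusted p = 0.0339), and Cd6, Cd2 and Cd3g fell as well. For Cd247 and Cd3d the groups overlapped, and each replicate fell, as the rule of naming required. The coreceptor chains did not pass: Cd8a went from 10.77 and 11.39 to 9.92 and 11.08 (-0.58 ± 0.28, adjusted p = 0.152), and Cd8b1 differed by -0.63 ± 0.28 (adjusted p = 0.123). In bulk samples, fewer cells of a type and less RNA per cell cannot be told apart.

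Of the genes that carry the signal from the receptor, 7 of 17 fell and none rose, with a median step of -1.03. The share of all genes tested that fell was 8.00%. Lcp2, the adaptor SLP-76, went from 10.12 and 11.17 to 6.98 and 9.68 (-2.31 ± 0.62, adjusted p = 0.0188). Rasgrp1, which activates Ras behind the receptor, went from 9.56 and 10.46 to 8.25 and 9.22 (-1.27 ± 0.27, adjusted p = 0.00732). Both 30 nM arrays of each gene lay under both 10 nM arrays. Sh2d2a, an adaptor that binds Lck (-1.37 ± 0.41, adjusted p = 0.0303), and Vav1, an exchange factor for Rac (-1.22 ± 0.37, adjusted p = 0.0322), fell too, as did Prkcq, Ptpn22 and Csk. Outside the list, Tespa1, which takes part in receptor signalling during thymocyte selection, went from 8.29 and 7.94 to 4.16 and 7.16 (-2.46 ± 0.67, adjusted p = 0.02).

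Of the list of inhibitory receptors and exhaustion genes, 5 of 11 fell and none rose, with a median step of -1.04. The share of all genes tested that fell was 8.00%. Pdcd1, which encodes PD-1, went from 10.11 and 11.06 to 6.79 and 9.52 (-2.43 ± 0.49, 5.41-fold lower, adjusted p = 0.00576). Cd160, a receptor for HVEM, went from 7.08 and 10.54 to 3.09 and 9.10 (-2.71 ± 0.87, adjusted p = 0.0402). Btla, another HVEM receptor, went from 7.74 and 8.50 to 5.19 and 7.24 (-1.91 ± 0.56, adjusted p = 0.0279). The doses did not overlap for Pdcd1 and Btla, and overlapped for Cd160. Tox, the transcription factor of exhausted T cells, fell by 1.38 (± 0.34, adjusted p = 0.0136), whereas its relative Tox2, outside the list, rose by 2.17 ± 0.56 (adjusted p = 0.0171). The fifth gene of the list was Vsir, which encodes VISTA. Among costimulatory receptors of the TNF receptor family, Cd27 was the 1 call in 10: it went from 7.70 and 9.65 to 3.86 and 7.90 (-2.79 ± 0.56, adjusted p = 0.00579), and the groups overlapped.

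The activating receptor Klrk1 (NKG2D) fell beside Klrd1 and Klrc1. It went from 8.47 and 11.19 to 5.51 and 10.10 (-2.02 ± 0.52, adjusted p = 0.0166), with the same order of dose in each replicate and overlapping groups. Klrd1 and Klrk1 stood in the list of natural killer cell markers and were the 2 members of it that were tested. Ncr1, Tyrobp and Fcer1g of that list lay at 3.17 or lower in all 4 arrays. The part of natural killer cell RNA in the falls of Klrd1 and Klrk1 was not tested. Ighm, the immunoglobulin heavy chain of B cells, went from 5.77 and 8.65 to 3.59 and 6.34 (-2.25 ± 0.63, adjusted p = 0.0232), as the 1 call among 7 B cell markers tested. It read 9.02 and 10.21 in the control. Cd79b, a signalling chain of the B cell receptor, read 4.92 and 7.82 at 10 nM and 3.59 and 6.91 at 30 nM and did not pass (adjusted p = 0.176), and Cd79a and Pax5 lay at the floor of the scale. The part of B cell RNA in other falls was not tested.

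The lymphocyte transcription factors moved in both directions, with 3 of 22 up, 9 down and a median step of -0.51. Of all genes tested, 12.8% rose and 8.00% fell. The rises were Irf4, which scales the effector programme with receptor strength (0.77 ± 0.16, adjusted p = 0.00741), Irf8 (0.69 ± 0.23, adjusted p = 0.0484) and Nfil3 (0.67 ± 0.20, adjusted p = 0.0306). Myb, a factor of stem-like T cells, went from 10.00 and 12.56 to 8.26 and 11.18 (-1.56 ± 0.33, adjusted p = 0.00759). The groups overlapped for Myb and each replicate fell. Bcl6, the repressor that opposes Blimp-1, fell by 1.31 (± 0.34, adjusted p = 0.0166), and Ikzf2 and Ikzf3, the Ikaros relatives Helios and Aiolos, by 1.29 and 1.23. Eomes, a T-box factor of memory CD8 T cells, went from 9.77 and 11.66 to 8.70 and 11.00 (-0.87 ± 0.28, adjusted p = 0.0402). Its relative Tbx21 (T-bet) went from 10.71 and 10.05 to 10.67 and 10.55 and did not pass (0.24 ± 0.25, adjusted p = 0.538). Lef1, Runx1, Bach2 and Gata3 fell too.

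The main cytotoxic products and cytokines of these cells did not pass the test. Gzmb, the protease granzyme B, read 15.26 and 14.40 at 10 nM and 14.60 and 14.46 at 30 nM (-0.30 ± 0.39, adjusted p = 0.614). Ifng, the main cytokine of the cells, read 14.88 and 13.49, and 14.81 and 13.61 (0.02 ± 0.39, adjusted p = 0.984). Prf1, the pore protein perforin, differed by -0.51 ± 0.71 (adjusted p = 0.643) and moved in opposite directions in the replicates, from 11.82 to 10.45 and from 10.49 to 10.85. Tnf was higher at 30 nM in both replicates, from 9.18 and 7.86 to 10.17 and 9.01, but did not pass (1.06 ± 0.42, adjusted p = 0.0818). Of the cytotoxic list, 1 of 15 rose and 2 fell, where 12.8% of all genes tested rose and 8.00% fell. Lamp1, the granule membrane protein, rose by 0.46 ± 0.14 (adjusted p = 0.0376). Unc13d, which primes granules for release, fell by 1.33 (± 0.22, adjusted p = 0.00235), and Serpinb9, which shields the cell from its own granzyme B, fell by 1.22 (± 0.41, adjusted p = 0.0472).

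Of the list of interleukin receptors and JAK-STAT genes, 1 of 23 rose and 3 fell, with a median step of -0.39, where 12.8% of all genes rose and 8.00% fell. Il27ra, a chain of the interleukin 27 receptor, went from 7.58 and 7.96 to 5.73 and 6.98 (-1.41 ± 0.26, adjusted p = 0.00397). Il18r1 and Il18rap, the chains of the interleukin 18 receptor, fell by 1.44 (± 0.37, adjusted p = 0.0158) and 2.13 (± 0.67, adjusted p = 0.0373), and Il18rap was under the detection level in the 30 nM array of replicate 1, at 2.88. Il2ra, the high-affinity chain for interleukin 2, differed by 0.01 ± 0.33 (adjusted p = 0.989), and its other detected probe set had the opposite sign. Ltb, a lymphotoxin chain, fell by 1.29 (± 0.27, adjusted p = 0.00717).

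**Figure D3:**
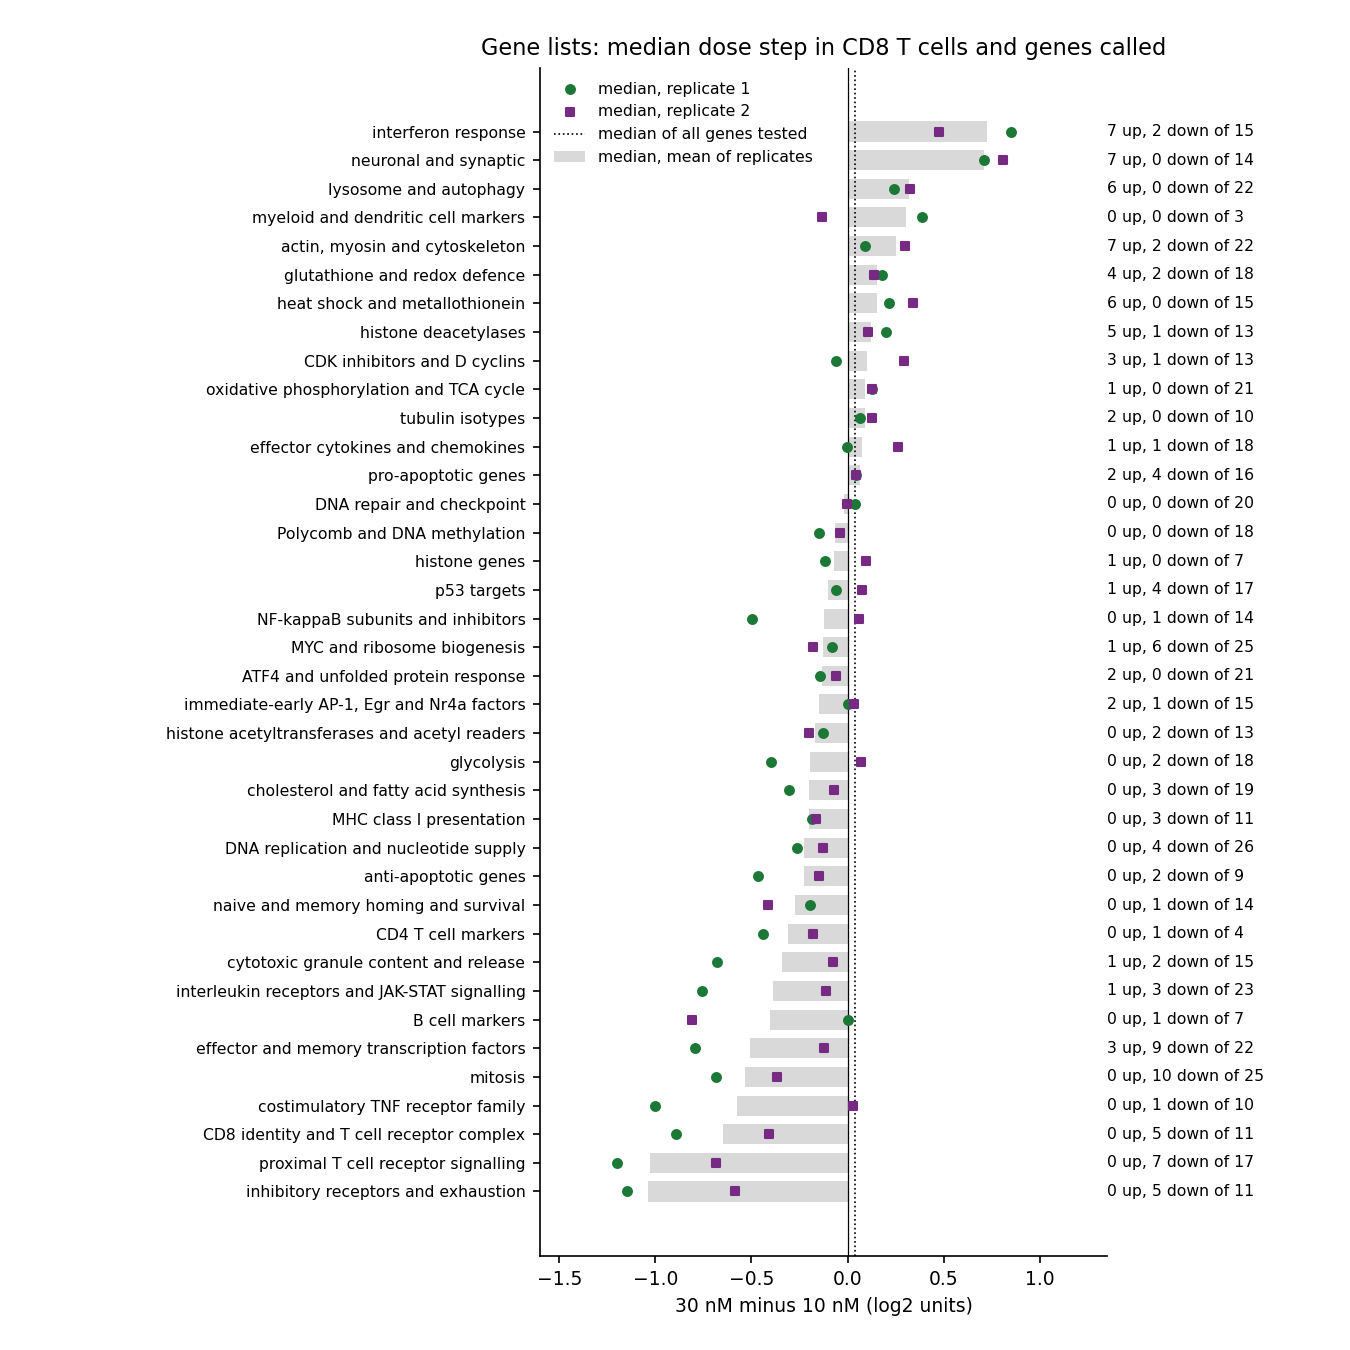
Median step of each gene list with at least 3 tested genes, in log2 units (grey bar), with the medians in replicate 1 (green circles) and replicate 2 (purple squares) and the number of members called each way. Inhibitory receptors (-1.04) and proximal receptor signalling (-1.03) lie lowest and the interferon response (0.72) highest, and the dotted line is the median of all genes tested (0.04).

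Genes of cell division were among the falls. Of 25 mitosis genes, 10 fell and none rose, with a median step of -0.54, where 12.8% of all genes tested rose and 8.00% fell. Mki67, the Ki-67 protein of dividing cells, went from 10.81 and 11.89 to 9.53 and 11.22 (-0.98 ± 0.28, adjusted p = 0.0239), and Plk1, a kinase of mitotic entry, from 8.75 and 8.90 to 7.52 and 8.42 (-0.85 ± 0.22, adjusted p = 0.0169). The groups overlapped for Mki67 and not for Plk1. Cenpa, the histone of the centromere, fell by 1.03 (± 0.27, adjusted p = 0.0173). Of 26 replication genes 4 fell, among them Rrm2 and Rrm1, the subunits of ribonucleotide reductase (-0.99 ± 0.30 and -0.43 ± 0.13, adjusted p = 0.0317 and 0.0307). Myc itself went from 10.46 and 11.68 to 8.99 and 11.05 (-1.05 ± 0.31, adjusted p = 0.0286). Its difference from the control at 10 nM did not pass (0.08, adjusted p = 0.903). Of the MYC and ribosome biogenesis list 6 of 25 fell, and its 1 rise was Mxd1, an antagonist of MYC, from 7.42 and 7.37 to 8.69 and 8.63 (1.27 ± 0.22, adjusted p = 0.00297).

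In the list of inhibitors of cell cycle kinases, D cyclins and retinoblastoma genes, 3 of 13 rose and 1 fell. The shares over all genes tested were 12.8% and 8.00%. Cdkn1c (p57) went from 4.57 and 4.69 to 6.68 and 6.19 (1.80 ± 0.37, 3.49-fold, adjusted p = 0.00591), and Cdkn2b (p15) rose at least 3.48-fold from under the detection level. Rb1, the retinoblastoma protein that holds back S phase, rose by 0.58 ± 0.17 (adjusted p = 0.0288). Cdkn1b (p27), which holds back resting T cells, fell by 0.71 (± 0.19, adjusted p = 0.0172). Cdkn1a (p21), the usual marker gene of deacetylase inhibition, went from 10.76 and 9.98 to 10.30 and 10.64, in opposite directions, and did not pass (0.10 ± 0.26, adjusted p = 0.818). Of 16 pro-apoptotic genes 2 rose and 4 fell, where 12.8% of all genes rose and 8.00% fell. Bcl2l11, which encodes BIM, rose by 0.61 ± 0.19 (adjusted p = 0.0364) and Diablo, an antagonist of inhibitors of apoptosis, by 0.73 ± 0.11 (adjusted p = 0.00112), while Casp8, Bik, Bak1 and Bbc3 fell. Of 9 protective genes Birc3 and Xiap fell and none rose, and Mcl1 (-0.21 ± 0.17, adjusted p = 0.383) and Bcl2 (-0.23 ± 0.21, adjusted p = 0.454) did not pass.

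The dose step can be set beside the distance of each dose from the control. These comparisons share arrays with the step, so only their own values are given. At 10 nM, 1697 genes differed from the control (17.2%), 894 higher (9.06%) and 803 lower (8.14%). At 30 nM it was 5172 genes (52.4%), 2742 higher (27.8%) and 2430 lower (24.6%). In the mitosis list 14 of 25 were lower than control at 10 nM and 23 at 30 nM. In the receptor signalling list it was 2 of 17 and 13, and in the list of inhibitory receptors none of 11 and 7. In the neuronal list 9 of 14 were higher at 10 nM and 12 at 30 nM. Pdcd1 differed from the control by -0.76 at 10 nM (adjusted p = 0.315) and by -3.19 at 30 nM (adjusted p = 0.000104).

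CD4 T cells went through the same dose step, on arrays of their own. Across the 9870 genes the CD4 step correlated with the CD8 step at r = 0.674, where genes are not independent replicates and the replicate numbers run through both cell types. The CD4 step was smaller, with a standard deviation over genes of 0.451 against 0.54. Of the genes that rose in CD8 cells, 83.5% were higher in both CD4 replicates, against 40.7% of all genes, and of those that fell 82.3% were lower in both, against 33.6%. A test of the difference between the steps called 6 genes (0.0608%), of which 3 changed in CD8 cells. Mxra8, an adhesion protein of the immunoglobulin family, went from 4.99 and 6.37 to 6.46 and 7.52 in CD8 cells and from 7.12 and 8.48 to 6.88 and 8.79 in CD4 cells, a difference of steps of 1.27 ± 0.20 (adjusted p = 0.0223). Fmnl2, a formin that extends actin filaments, went from 2.75 and 2.35 to 5.19 and 4.18 in CD8 cells and lay between 5.66 and 5.76 in CD4 cells at both doses (2.07 ± 0.30, adjusted p = 0.0165). Msrb3, a methionine sulfoxide reductase, went from 2.98 and 3.01 to 5.56 and 6.18 in CD8 cells and from 5.75 and 5.89 to 5.84 and 6.91 in CD4 cells (2.32 ± 0.35, adjusted p = 0.0169). All 3 were lower in CD8 than in CD4 cells at 10 nM. Fmnl2 and Msrb3 lay under the detection level there, so that their differences are of measured log2 values, and their CD8 rises are at least 1.33-fold and 3.04-fold. No difference passed under quantile normalization, with trended and robust variances, without the replicate number, or without CD8 10 nM replicate 2 or 30 nM replicate 1, where 147 to 1187 genes had an unadjusted limma p under 0.05. It was 3 genes without CD4 10 nM replicate 2 or CD4 30 nM replicate 1, 19 without CD8 10 nM replicate 1 and 25 without CD4 30 nM replicate 2. The interval of a difference of steps reached a median of 0.50 to each side without adjustment, and the smallest difference called was that of 1700061F12Rik (-1.09).

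**Figure D4:**
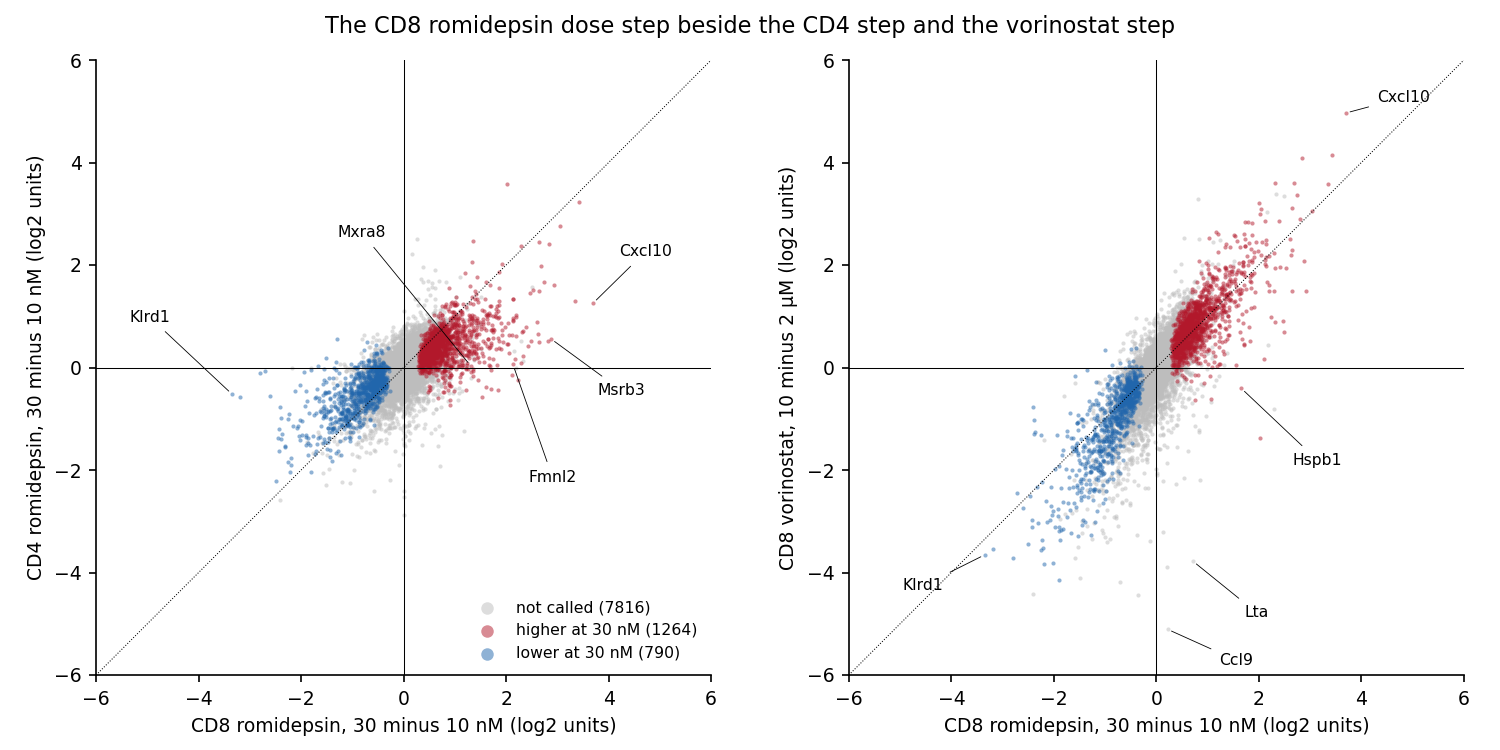
Each point is 1 of the 9870 genes tested: the CD8 romidepsin step (x axis, 30 minus 10 nM) against the CD4 romidepsin step (left) or the CD8 vorinostat step from 2 to 10 µM (right), in log2 units, with the genes called in the CD8 romidepsin step in red (rose) and blue (fell) and a dotted line of equal steps. The points lie flatter than the line in the left panel, where the standard deviation of the CD4 step was 0.451, and steeper in the right, where that of vorinostat was 0.75.

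Vorinostat, a hydroxamate inhibitor of class I and class II deacetylases, was given to CD8 T cells at 2 and 10 µM. The doses of the drugs are not matched in effect, so the steps are set side by side as measured. The vorinostat step correlated with the romidepsin step at r = 0.824 across the 9870 genes, and its standard deviation was 0.75. Of the genes that rose with romidepsin, 94.8% were higher in both vorinostat replicates (42.9% of all genes), and of those that fell 96.3% were lower (37.0%). The test of the difference between the 2 steps called 3 genes (0.0304%). Lta, the cytokine lymphotoxin alpha, went from 11.87 and 9.24 to 12.49 and 10.06 with romidepsin, and from 12.85 and 10.61 to 7.95 and 7.96 with vorinostat, a difference of 4.50 ± 0.63 (adjusted p = 0.0366). Its romidepsin step alone did not pass (0.72 ± 0.45, adjusted p = 0.263). Ccl9, a chemokine for myeloid cells, went from 9.70 and 5.39 to 8.27 and 7.26 with romidepsin and from 9.56 and 7.20 to 3.89 and 2.65 with vorinostat (5.33 ± 0.83, adjusted p = 0.0456). Hspb1, the small heat shock protein Hsp27, went from 5.23 and 4.48 to 6.48 and 6.55 with romidepsin and from 5.35 and 5.64 to 5.38 and 4.79 with vorinostat (2.07 ± 0.33, adjusted p = 0.0456). Without the replicate number, with the CD8 arrays only, or without 10 nM replicate 2, 30 nM replicate 2 or vorinostat 2 µM replicate 1, no difference passed, and 128 to 1097 genes had an unadjusted limma p under 0.05. It was 1 gene without vorinostat 10 µM replicate 1 or 2 µM replicate 2, 13 without 10 nM replicate 1, 17 without 30 nM replicate 1 and 125 without vorinostat 10 µM replicate 2.

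Some of the named genes passed under every setting tried and others under few. Of 148 named genes called in the step, 14 still passed with each of the 4 arrays left out in turn, and all 14 were rises: Cadm4, Cdh1, Clba1, Copz2, Cxcl10, Diablo, Dynlrb2, Enah, Hspb1, Lmna, Mt1, Mxra8, Prss16 and Wasf1. Prss16, a serine protease known from the thymus, went from 5.88 and 5.36 to 8.04 and 8.17 (2.49 ± 0.28, adjusted p = 0.000256). Without the replicate number 12 of the 148 passed, all of them rises. With the spread taken from the CD8 arrays only, 97 of the 148 passed. The direction of the 148 was the same in each alternative fit that held the gene. Most of them were named only if both replicates moved the same way, so this was in large part set by the choice. The larger falls in replicate 1 went with the larger growth of the actin gap there (from 1.01 to 1.23, against 0.85 to 0.90), while the gap of Gapdh was smaller at 30 nM in both replicates. With the actin gap as a covariate 114 of the 148 passed, among them Pdcd1, Cd27, Lcp2 and Myb, and not Klrd1, Cd160 or Myc. The actin gap grew with drug in other groups too. In CD8 cells it was 0.86 and 0.79 in the control and 1.43 and 1.16 at 10 µM vorinostat. Gap and drug move together, so this fit cannot separate them, and the part of RNA quality in the falls was not tested.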

How the data were processed

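The authors deposited 1 table of log2 expression values for 45101 probe sets on 28 arrays. GCRMA, which corrects background by probe sequence, normalizes quantiles and summarizes probes, is named in the submitters' processing notes; its version is not given in the sources used here, nor is the base of the logarithm, which was read as 2, the scale GCRMA gives. The lowest value was 2.2684 in all replicate 1 arrays and 2.2545 in all replicate 2 arrays, and whether the sets were normalized together is not stated.

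In the array annotation 34945 probe sets have a single gene, 932 have several and 9211 have no gene; symbols were updated through gene IDs. The brightest probe set stood for each of 18193 genes, and 9870 genes over 4.27 in at least 2 arrays were tested. A gene under 4.27 on average at 1 dose has only a bound ("at least"), taken from that level.

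One limma model (limma 3.58.1, R 4.3.3; lmFit, eBayes) held a mean for each of the 14 groups, plus replicate number as a block (CD4 and CD8 apart), since the comparison is paired by replicate number. Equal numbers deviated together: over the 21 pairs of CD8 groups the correlation of deviations ran from 0.768 to 0.958, and it was 0.863 for 10 and 30 nM. The numbers come from the sample titles, which do not say what they share. The code was tested on simulated data. The number of arrays, 2 a group, limits the precision; the 95% interval of a step reached a median of 0.353 to each side, and 0.975 without the block.

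Members and gene lists were chosen with earlier results of these data known. Named genes are the 12 largest calls each way whose means were over 4.27, up to 6 bounds each way, up to 4 called members of each list each way, the called differences of steps with all means over 4.27, and a set of known T cell and deacetylase genes; of the last, Tcf7, H1f0 and Gapdh were not tested. No list was tested as a set: lists are given by counts and medians. Ifih1, Igtp, Irgm1, Cd3g, Prkcq, Ptpn22, Csk, Vsir, Lef1, Runx1, Bach2 and Gata3 are named as further called members, and Fmnl2, Msrb3, Prdm16, Tgm1, 1700061F12Rik, Ccl9 and Cd79b outside that rule, after their values were seen. Alternatives were another scaling (equal medians, quantiles), no filter, the mean of probe sets, CD8 arrays only, trended and robust variances, an actin covariate, no replicate block, and each array left out. Promoter windows were read from RefSeq (GRCm38.p6).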

Additional observations from a re-analysis of the deposited data

Results flagged for a closer look

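The difference between the romidepsin step of CD8 and of CD4 T cells passed the limma test for 6 genes, given here as CD8 minus CD4 in log2 units: Msrb3 (2.32), Fmnl2 (2.07), Prdm16 (1.55), Tgm1 (1.32), Mxra8 (1.27) and 1700061F12Rik (-1.09). Prdm16, Tgm1 and 1700061F12Rik were under the detection level in the 4 CD8 arrays, between 2.26 and 3.20, so for them the difference is that of the CD4 step alone. Tgm1, a transglutaminase of skin, went in CD4 cells from 9.07 and 7.98 to 8.13 and 6.42. 1700061F12Rik went from 5.22 and 5.06 to 6.16 and 6.34 there. Prdm16 went in CD4 cells from 4.28 and 3.62 to 2.50 and 2.35. Only its 10 nM array of replicate 1 was over the detection level, so its difference is of measured log2 values and no fold.

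The difference between the romidepsin step and the vorinostat step in CD8 cells passed for 3 genes, in log2 units: Ccl9 (5.33), Lta (4.50) and Hspb1 (2.07). The vorinostat arrays of Ccl9 at 10 µM lay under the detection level, so its difference is a measured difference of log2 values and no fold.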

How the results depend on the processing

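Without the replicate block, the count fell from 2054 to 46 genes for the step, to 0 for both differences of steps (147 and 128 genes at an unadjusted limma p under 0.05), and from 1697 to 111 and from 5172 to 1068 for 10 and 30 nM against the control. The CD8 numbers were taken as paired by the check of the deviations and the rule of the comparison. Without the filter on low values 1225 genes passed for the step, 18 for the difference between cell types and 30 for that between drugs. The difference between cell types counted 0 under quantile normalization (1187 unadjusted), 0 with trended and robust variances (1014) and 20 with the actin covariate; that between drugs counted 1 with the mean of probe sets, 0 with CD8 arrays only (1097) and 15 with the actin covariate. Leaving out 1 array in turn gave 108 to 2347 genes for the step, 0 to 25 between cell types, 0 to 125 between drugs, 252 to 1382 for 10 nM against the control (lowest without 10 nM replicate 1; 347 without control replicate 1) and 3392 to 4680 for 30 nM (lowest without control replicate 1). With 1 array left out, the lone array of its group is assumed to vary like the other groups. The cause of these changes was not tested. The other planned settings kept these counts within 1.5 times.

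Steps that did not pass changed sign for Ifng (-0.0011 with equal medians; -0.26 to 0.30 with 1 array left out), Il2ra (-0.0094 with equal medians, -0.077 with the mean of probe sets, -0.26 to 0.29 with 1 array left out), Cdkn1a (-0.37 to 0.57 likewise), Hdac2 (-0.021 to 0.19), Prf1 (-1.10 to 0.081), and, with the actin covariate, Bcl2 (0.024), Gzmb (0.21) and Prf1 (0.048). Of 38 list medians, all 38 kept their sign under both rescalings, and 33 to 37 with 1 array left out.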

Other observations

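Lipid, antigen-presentation and energy genes changed in small numbers, where 12.8% of all genes tested rose and 8.00% fell. Of 19 genes of cholesterol and fatty acid synthesis 3 fell and none rose. Fasn, the fatty acid synthase, went from 8.20 and 9.38 to 5.89 and 8.32 (-1.69 ± 0.50, adjusted p = 0.0288), and Elovl6, a fatty acid elongase, fell by 1.55 (± 0.35, adjusted p = 0.00905). Of 11 genes of MHC class I presentation 3 fell and none rose: Psmb10, a subunit of the immunoproteasome (-1.53 ± 0.29, adjusted p = 0.00473), Erap1, which trims peptides (-1.20 ± 0.34, adjusted p = 0.0229), and Tapbp, which encodes tapasin (-0.43 ± 0.13, adjusted p = 0.0368). In glycolysis 2 of 18 fell, Slc2a1 (the glucose transporter GLUT1, -0.74 ± 0.23, adjusted p = 0.0332) and Tpi1 (-0.71 ± 0.22, adjusted p = 0.0341), and in oxidative phosphorylation 1 of 21 rose, the citrate synthase Cs (0.42 ± 0.12, adjusted p = 0.0213).

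Genes that fell from over to under the detection level included Slc17a6, a vesicular glutamate transporter (6.33 and 7.41 to 2.72 and 5.81, at least 6.07-fold lower), Gpr183, an oxysterol receptor that guides lymphocytes (4.84 and 7.87 to 2.54 and 5.40, at least 4.24-fold), and Trbv13-2, a variable segment of the receptor beta chain (5.46 and 6.99 to 3.28 and 5.06, at least 3.88-fold).  Each lay lower at 30 nM in both replicates, and the replicate 2 array at 30 nM was still over the detection level for all 3.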
